A study of Mus musculus with 37 samples.

Results

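The hearts of mice that survived cardiac arrest were compared between 0.5 days and 1 day after resuscitation, to ask which functions of the ventricle are transcribed earlier and which later in the first day. The comparison used 8 of the 37 libraries of the series, 4 from each time point, and the 13233 of 56748 listed genes that reached at least 0.5 FPKM (fragments per kilobase of transcript, scaled to the depth of the library) in at least 4 of those 8 libraries. All mice were C57BL/6J of both sexes, aged 8 to 10 weeks, and all had isoflurane anesthesia. Arrest mice were intubated, ventilated and given potassium chloride into the left ventricle, and after 8 min of asystole they were resuscitated with intraventricular adrenaline and chest compressions. Adr mice, which the labels call sham, were intubated, ventilated and injected with saline in place of potassium chloride and received adrenaline without arrest or compressions, and 4 libraries from 0.5 days and 4 from 1 day served for comparison. Naïve mice (5 libraries) had anesthesia alone. RNA came from left ventricular tissue with the apex discarded, so each library mixes cardiomyocytes with the vessels, fibroblasts and leukocytes of the wall. In such bulk tissue, fewer cells of a type and less RNA per cell cannot be told apart. Each library is taken as 1 mouse, with 2 males and 2 females in each Arrest and each Adr group at these times. An animal could be sampled at 1 day only if it had lived that long, and the paper lists deaths before sampling only in its later Arrest groups. The hours of procedure and sampling are not given in the sources used here. Time after arrest and time of day therefore cannot be told apart in this comparison.

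In the hours after the circulation returns, a reperfused heart typically passes through a burst of immediate early and chemokine transcription, brings in neutrophils and then monocytes, and meets oxidized and misfolded protein with chaperones, the endoplasmic reticulum (ER) stress response and the proteasome. Cardiomyocytes obtain most of their ATP from oxidative phosphorylation, whose subunits are encoded partly in the nucleus and partly in the mitochondrial genome. The order in which these programs fade or return is what a comparison of these 2 times can describe.

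The libraries held 14405271 to 21693388 counted fragments at 0.5 days and 13966163 to 16102571 at 1 day, as recovered from the FPKM values. The 20 library measures were depth, genes above 0, mitochondrial share, dependence on gene length and the summed FPKM of 16 cell type marker lists. None differed between the times by an exact two-sided permutation test, which can go no lower than p = 0.0286 with 4 against 4 (smallest adjusted p = 0.703 over the 20). After adjustment over 20 measures, a single fully separated measure could not have passed, so this outcome does not show the groups to be alike. Ventricular cardiomyocyte markers summed to 11591 to 18564 FPKM in every library, against 0 to 1.15 for T cells and 0.0745 to 4.09 for B cells, so the tissue matched its label. The libraries did not group by time. Pearson correlations of log2(FPKM + 1) across genes ranged from 0.951 to 0.971 within 0.5 days, from 0.953 to 0.975 within 1 day and from 0.948 to 0.973 between the times. The first principal component (28.1% of the variance) set 0.5 day replicate 3 and 1 day replicate 4 (scores -26.6 and -27.8) against 0.5 day replicate 2 and 1 day replicates 3 and 1 (26.2, 19.7 and 16.9). The numbers in the labels' description field ran from 99 to 124 at 0.5 days and from 70 to 95 at 1 day; their meaning is not given in the sources used here, and whatever they mark cannot be told apart from the time.

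No gene differed between the 2 times at an adjusted p of 0.05 (0% of 13233, limma with Benjamini-Hochberg adjustment), and the smallest adjusted p was 0.978. At an unadjusted p of at most 0.05, 299 genes (2.26%) were higher and 238 (1.80%) lower at 1 day. In 171 genes (1.29%) all 4 libraries of 1 day lay above all 4 of 0.5 days, and in 157 (1.19%) all lay below. If the times did not differ, a gene would separate in one direction or the other with a probability of 0.0286. The separated genes together stay below that share, and those at an unadjusted p of 0.05 stay below 0.05 of all genes. Neither count therefore shows a difference between the times. The transcriptome as a whole was level, with 50.7% of genes higher at 1 day and a median difference of 0.00 on the log2 scale. The size of the differences was small, with a median absolute value of 0.12 and a 95th percentile of 0.45, against a median standard error (SE) of 0.17. Of the 55 genes that differed by at least 1 log2 unit either way, 33 had an unadjusted p of at most 0.05. The split depended on the scale: with libraries scaled to all counted fragments, 200 genes were higher and 281 lower at that threshold (41.6% higher, against 55.7% here), and with limma voom on the recovered fragments 169 were higher and 298 lower (36.2% higher). Differences are therefore described by their values, with unadjusted p from limma, and no gene is called changed. Of 55 gene lists, written with earlier results of these data known, 25 had a median above 0 and 30 below, and in all but the core clock list the 4 and 4 library medians overlapped.

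The genes described next were picked for an unadjusted p of at most 0.05, libraries that did not overlap and a large difference. For genes picked so, these values and the intervals describe the choice and do not test it. Among named genes outside the clock, the larger differences toward 1 day fell on genes of varied function. Ctf1, which encodes the IL-6 family cytokine cardiotrophin-1, stood at 2.90, 3.83, 2.33 and 3.60 FPKM at 0.5 days and at 5.48, 6.77, 5.05 and 5.27 FPKM at 1 day. The means were 3.16 ± 0.684 and 5.64 ± 0.773 FPKM (SD, n = 4), and each 1 day library exceeded each 0.5 day library. On the log2 scale Ctf1 was 0.68 higher at 1 day (95% interval 0.34 to 1.02, limma unadjusted p = 0.0012), and it stayed between 0.58 and 0.76 when any library was left out. Neat1, the long noncoding RNA that scaffolds nuclear paraspeckles, read 20, 18.9, 15 and 16.1 FPKM at 0.5 days against 26.9, 27.2, 29.0 and 26.3 FPKM at 1 day. The 5 Naïve libraries spanned 9.84 to 15.1 FPKM, so 7 of the 8 Arrest values lay above them and 0.5 day replicate 3 lay at their upper edge. The log2 difference of Neat1 was 0.62 (SE 0.11, limma unadjusted p = 0.00032). Selenbp1, a selenium-binding methanethiol oxidase, read 43.1, 31.9, 32.9 and 32.2 FPKM at 0.5 days and 53.9, 54.0, 54.8 and 46.8 FPKM at 1 day, a log2 difference of 0.58 (SE 0.12). The Naïve range of Selenbp1 was 27.4 to 40.3 FPKM, which held 3 of the 4 libraries of 0.5 days and none of 1 day.

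The other genes at this end were lower in level or harder to assign. Ift27, a subunit of the intraflagellar transport machinery of cilia, averaged 2.36 ± 0.275 FPKM at 0.5 days and 4.30 ± 0.589 FPKM at 1 day (SD, n = 4). The neuronal microtubule regulator Stmn2 averaged 1.80 ± 0.504 and 3.19 ± 0.602 FPKM. Fbxl15 (F-box protein), Txnl4b, Lrrc75a and Phpt1 (phosphohistidine phosphatase) were 0.65, 0.66, 0.59 and 0.71 higher on the log2 scale, each at a mean below 5 FPKM. The list was headed by the long noncoding RNA AV356131 (1.04 higher, on 0 to 25 fragments a library) and by the processed pseudogenes Apoo-ps (0.98 higher) and Rps24-ps3 (0.83 higher), whose fragments may belong in part to their near-identical parent genes.

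The genes named at the opposite end, lower at 1 day and picked in the same way, are described next. Igkc, the immunoglobulin kappa constant region, read 23.1, 1.78, 6.41 and 1.48 FPKM at 0.5 days and 0.861, 0.608, 0.145 and 0 FPKM at 1 day. Its log2 difference was -2.12 (95% interval -3.53 to -0.71, limma unadjusted p = 0.0074), and without 0.5 day replicate 1, the highest library, it was -1.45. The heavy chain gene Ighm went the same way, from 9.35, 2.85, 7.98 and 4.14 FPKM to 2.15, 4.73, 1.81 and 2.22 FPKM, with overlapping groups. The B cell marker sum was 4.09, 1.24, 1.42 and 0.590 FPKM at 0.5 days and 0.0745, 1.32, 0.800 and 0.727 FPKM at 1 day, and its part in the immunoglobulin values was not tested. Ccl8, a chemokine for monocytes, read 4.33, 2.78, 18.1 and 2.57 FPKM at 0.5 days and 1.94, 0.759, 0.303 and 1.73 FPKM at 1 day. The log2 difference of Ccl8 was -1.56 (SE 0.50), or -1.01 without 0.5 day replicate 3. Cd83, a surface protein of mature dendritic cells, averaged 3.26 ± 0.631 FPKM at 0.5 days and 1.62 ± 0.702 FPKM at 1 day (SD, n = 4), both below the 5.95 to 14.8 FPKM of Naïve hearts. Ly86, a partner of a Toll-like receptor homologue on myeloid and B cells, averaged 1.95 ± 0.742 and 0.843 ± 0.178 FPKM. Plek, the leukocyte and platelet kinase substrate pleckstrin, averaged 4.32 ± 1.20 and 2.47 ± 0.664 FPKM. Gimap3, a GTPase of lymphocytes, read 1.16, 1.51, 1.05 and 0.680 FPKM at 0.5 days and 0.563, 0.10, 0.0300 and 0.0686 FPKM at 1 day. Bcl2a1a, an anti-apoptotic gene of a multigene family whose copies can share reads, was 0.74 lower on the log2 scale, on at most 22 fragments.

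The remaining genes in this group were the calmodulin-binding protein gene Nrgn (0.86 lower on the log2 scale), the DNA glycosylase gene Neil1 (0.62 lower), the cyclin-dependent kinase subunit gene Cks2 (0.66 lower) and the small nucleolar RNA SNORA2C. In Adr hearts Cks2 was likewise lower at 1 day, by 0.75 (SE 0.25). SNORA2C was listed at 6.72, 6.0, 3.73 and 8.57 FPKM at 0.5 days and at 0, 0, 1.12 and 2.56 FPKM at 1 day, on 0 to 27 fragments, and at 0 in all Naïve libraries. Its log2 difference was -2.08 (SE 0.40, limma unadjusted p = 0.00046), and the transcript is 138 bases long.

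**Figure D1:**
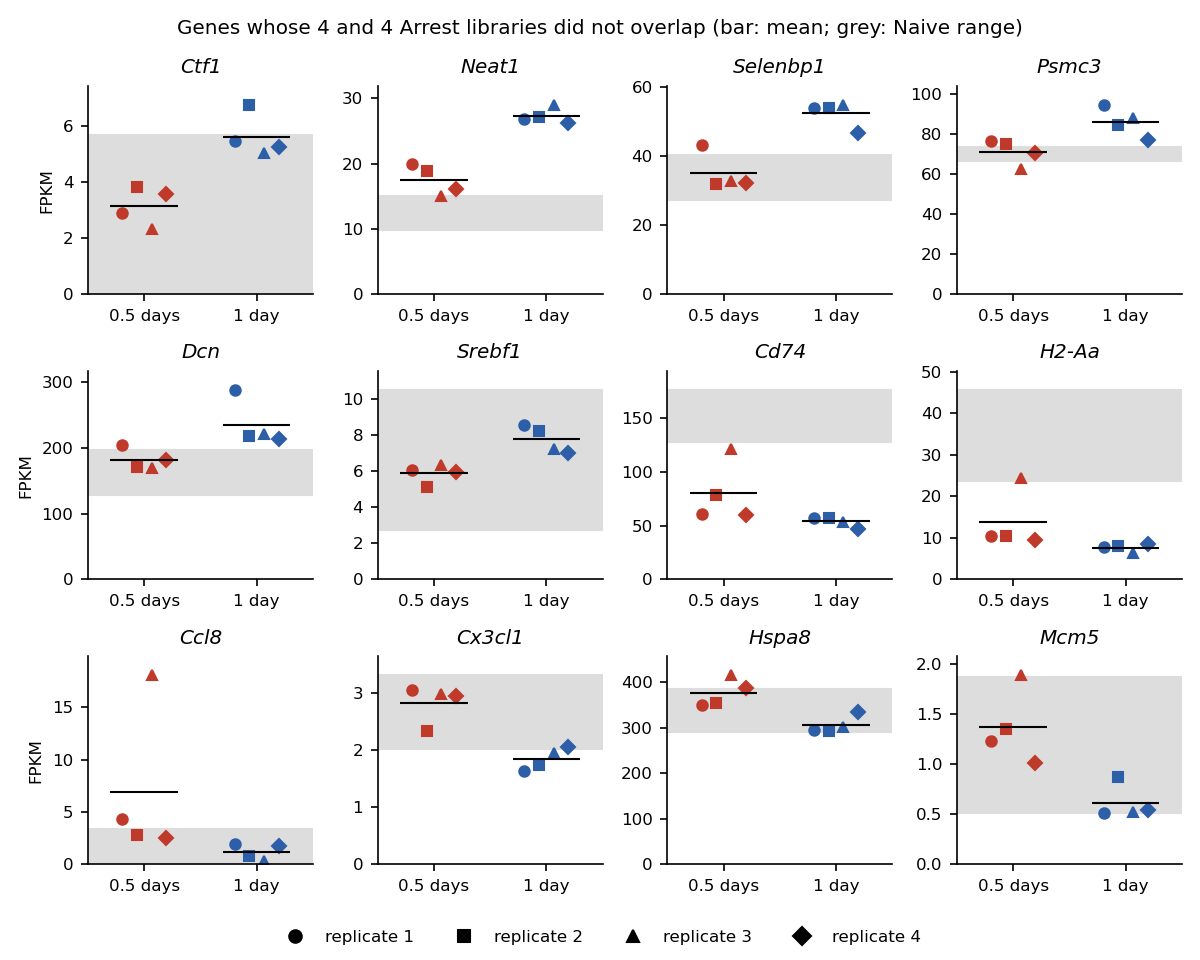
FPKM (linear axis from 0) of 12 genes in each of the 4 Arrest libraries at 0.5 days (red) and at 1 day (blue), with replicates as symbols, the mean of 4 as a bar and the range of the 5 Naïve libraries in grey. The genes shown are ones whose 2 sets of symbols do not overlap, as for Neat1 (15 to 20 against 26.3 to 29.0 FPKM). For Ccl8 and H2-Aa the separation is narrow apart from replicate 3 at 0.5 days.

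Antigen presentation by MHC class II, by which macrophages, dendritic cells and B cells show peptides to helper T cells, had the lowest median of the lists with at least 5 members tested. Of 8 members tested, 6 were lower at 1 day, with a median log2 difference of -0.44 beside 0.00 over all genes. Cd74, the invariant chain that guides class II molecules, read 60.9, 78.0, 121 and 59.4 FPKM at 0.5 days and 57.5, 57.1, 53.7 and 47.2 FPKM at 1 day. H2-Aa, the class II alpha chain, read 10.4, 10.5, 24.5 and 9.43 FPKM and then 7.74, 7.99, 6.42 and 8.55 FPKM. Both genes were without overlap between the times, and in both 0.5 day replicate 3 was highest. These 2 of 8 members stood beside 1.19% of all genes. The values of Cd74 and H2-Aa were below every Naïve library (128 to 176 and 23.7 to 45.6 FPKM) at both times, except H2-Aa in 0.5 day replicate 3. Relative to Naïve hearts the list median was -0.66 at 0.5 days and -1.23 at 1 day. H2-Ab1, the beta chain, was 0.59 lower (SE 0.25) with overlapping groups. Without 0.5 day replicate 3 the list median was -0.20 and the log2 difference of Cd74 was -0.28. In Adr hearts the same list had a median of 0.08, with 6 of 8 members higher at 1 day. B2m, the light chain of MHC class I, read 329, 502, 537 and 474 FPKM at 0.5 days and 318, 405, 272 and 274 FPKM at 1 day, with overlapping groups, and the list of class I and immunoproteasome genes had 11 of 15 members lower (median -0.19). That median was -0.09 without 0.5 day replicate 3 or without 1 day replicate 1, and -0.12 without 1 day replicate 3. In Adr hearts 14 of 15 members of that list were higher (median 0.22).

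Monocyte genes were lower at 1 day in 8 of 9 members tested (median -0.40), while all 9 were higher at 1 day in Adr hearts (median 0.46). Ms4a6c, a membrane protein of monocytes and macrophages, read 4.14, 5.80, 4.33 and 4.83 FPKM at 0.5 days and 3.84, 3.69, 3.17 and 2.85 FPKM at 1 day. It was the only 1 of the 9 members without overlap, beside 1.19% of all genes downward. Ccr2, the receptor that brings inflammatory monocytes to Ccl2, read 0.676, 0.324, 0.819 and 1.35 FPKM and then 1.05, 0.325, 0.538 and 0.401 FPKM, with the groups interleaved. Resident macrophage genes differed less, with 15 of 23 lower and a median of -0.05. C1qa, a complement subunit made by these cells, ranged from 63.0 to 120 FPKM at 0.5 days and from 74.8 to 137 FPKM at 1 day. The macrophage marker sum was 214 to 298 FPKM and 203 to 317 FPKM at the 2 times.

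Chemokine genes were lower in 14 of 18 members (median -0.29). Cx3cl1, fractalkine, an endothelial chemokine, read 3.05, 2.33, 2.98 and 2.95 FPKM at 0.5 days and 1.63, 1.73, 1.95 and 2.05 FPKM at 1 day, a log2 difference of -0.43 (SE 0.12). Ccl8 was the only other of the 18 members without overlap, beside 1.19% of all genes downward. Ccl2 and Cxcl1, which draw monocytes and neutrophils, varied widely within each time, from 3.07 to 14.9 and from 5.0 to 11.4 FPKM for Ccl2 and from 0.412 to 10.3 and from 1.29 to 5.21 FPKM for Cxcl1. Early inflammatory and NF-kB feedback genes had a median of -0.17 (15 of 21 lower), and without 0.5 day replicate 2 the median was -0.04. No member of that list was separated, beside 1.29% of all genes upward and 1.19% downward. The endothelial activation list had 18 of 22 members lower (median -0.19), and without 0.5 day replicate 2 the median was -0.04. Selp, the P-selectin by which activated endothelium and platelets catch leukocytes, read 0.776, 5.0, 1.21 and 1.83 FPKM at 0.5 days and 1.25, 0.103, 0.298 and 0.614 FPKM at 1 day. Its log2 difference was -0.92 (SE 0.37, limma unadjusted p = 0.031), and -0.56 without replicate 2 at 0.5 days. Tek, the angiopoietin receptor, read 26.8 to 27.7 FPKM against 21.6 to 26.5 FPKM, a log2 difference of -0.14. It was the only separated member of the 22 tested, beside 1.19% of all genes downward. Neutrophil genes had 8 of 10 tested members lower (median -0.19), but the median was 0.04 without 0.5 day replicate 4 and 0.01 without 1 day replicate 4. The calprotectin genes S100a8 and S100a9 differed by -0.01 and 0.05 on the log2 scale and ranged over 1.02 to 11.8 and 1.60 to 13.6 FPKM at 0.5 days alone. Csf3r, the receptor for the granulocyte growth factor, read 0.949, 1.56, 0.891 and 1.14 FPKM and then 0.275, 0.520, 0.515 and 0.702 FPKM. It was the only 1 of the 10 members without overlap, beside 1.19% of all genes downward. The neutrophil marker sum was 3.60 to 32.2 FPKM at 0.5 days and 5.81 to 19.3 FPKM at 1 day, with Ly6g listed at 0 in all 8 libraries.

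Acute phase products had 10 of 14 members lower and a median of -0.08, whose direction turned when 1 library was left out (0.11, 0.06 and 0.03 without 0.5 day replicates 2 and 4 and 1 day replicate 4) and which reached -0.38 without 0.5 day replicate 3. Lcn2, an iron-trapping secreted protein, ranged from 16 to 70.2 FPKM at 0.5 days and from 18.9 to 56.4 FPKM at 1 day, against 0.227 to 3.42 FPKM in Naïve hearts. Serpina3n, a serine protease inhibitor, ranged from 105 to 193 and from 94.7 to 218 FPKM, against 1.49 to 18.9 FPKM in Naïve hearts. The log2 differences between the times were 0.05 (SE 0.54) and 0.20 (SE 0.27), with intervals of -1.16 to 1.26 and -0.42 to 0.81. The intervals of both genes include differences as large as the -0.29 median of the chemokine list.

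The list of ER stress genes was lower at 1 day in 22 of 25 members tested, with a median of -0.29. These genes encode the chaperones and folding enzymes of the ER and the parts of its degradation pathway, and many are controlled through the ER stress element, which joins the boxes CCAAT and CCACG across 9 bases of any letter. In the 250 bases upstream of the start, searched on both strands, this exact arrangement occurred in 9 of 23 RefSeq promoters of the list (39.1%), against 37 of 32851 promoters of all genes (0.11%). The list was written from genes of this response, so that share describes the list and does not bear on a change between the times. The matches are shown because they are the sequence that these members share. Hspa5 belongs to the anchor genes of the list, and the other genes were chosen for their matches after their values were seen. Each line gives the strand that reads CCAAT first, on GRCm38.p6, with the element in capitals between 12 flanking bases.
Hspa5, chr2:34772013-34772055 (+): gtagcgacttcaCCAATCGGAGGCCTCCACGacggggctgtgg
Calr, chr8:84847063-84847105 (+): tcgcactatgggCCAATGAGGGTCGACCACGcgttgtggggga
Canx, chr11:50325788-50325830 (-): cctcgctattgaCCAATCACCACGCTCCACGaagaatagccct
Pdia6, chr12:17266479-17266521 (+): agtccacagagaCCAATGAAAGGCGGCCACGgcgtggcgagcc
Dnajc3, chr14:118937815-118937857 (+): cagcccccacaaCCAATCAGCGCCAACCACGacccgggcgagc
Creld2, chr15:88819508-88819550 (-): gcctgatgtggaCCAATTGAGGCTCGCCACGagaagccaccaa
Syvn1, chr19:6046520-6046562 (+): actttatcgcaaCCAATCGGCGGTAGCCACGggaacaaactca
Hsp90b1, chr10:86705521-86705563 (+): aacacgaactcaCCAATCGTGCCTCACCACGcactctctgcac
Hsp90b1 also held a second match, and Derl3 held one as well. In Hspa5 the element lay 65 to 47 bases before the start, within the stretch from base -150 to base -1 at chr2:34771940-34772089 on the plus strand, which is printed in whole because Hspa5 is an anchor gene of the list and the first to be described.
Hspa5 upstream: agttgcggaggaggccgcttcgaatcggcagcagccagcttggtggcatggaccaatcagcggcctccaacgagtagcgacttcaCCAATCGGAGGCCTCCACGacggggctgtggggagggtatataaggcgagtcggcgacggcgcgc

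Hspa5, the master ER chaperone BiP, read 140, 87.0, 226 and 141 FPKM at 0.5 days and 80.1, 72.2, 68.2 and 247 FPKM at 1 day. At 1 day replicates 1 to 3 lay below all libraries of 0.5 days and of Naïve hearts (90.3 to 127 FPKM), and replicate 4 lay above every other library. The log2 difference of Hspa5 was -0.50 (SE 0.42, limma adjusted p = 0.98) with all libraries and -0.93 (limma adjusted p = 0.67) without 1 day replicate 4. Xbp1, the transcription factor that is spliced during ER stress, followed at 40.9, 42.9, 51.9 and 45.7 FPKM and then 30.8, 29.0, 29.7 and 49.8 FPKM. The same library was highest at 1 day in each of the 8 genes whose elements are shown. Hsp90b1 read 31.2, 35.7 and 32.0 FPKM in the other 3 libraries of 1 day and 87.3 FPKM in replicate 4, Calr read 55.3, 64.7, 52.0 and 157 FPKM, and Creld2 read 10.8, 9.37, 7.20 and 49.7 FPKM. At 0.5 days replicate 3 was highest in each of these 3 genes, at 89.9, 141 and 32.0 FPKM. The list median was -0.50 without 1 day replicate 4, -0.17 without 0.5 day replicate 3 or without 1 day replicate 3, and -0.18 without 1 day replicate 2. In Adr hearts it was -0.02. No member of this list was separated between the times with all libraries in place, beside 1.29% of all genes upward and 1.19% downward.

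Cytosolic heat shock genes were lower in 19 of 23 members, with a smaller median of -0.09 that lay between -0.16 and -0.06 when any library was left out. Hspa8, the constitutive Hsc70 chaperone, read 351, 355, 416 and 387 FPKM at 0.5 days and 296, 292, 302 and 335 FPKM at 1 day, a log2 difference of -0.30 (SE 0.11). Its libraries did not overlap, in 1 of 23 members, beside 1.19% of all genes downward. Hsph1, its nucleotide exchange factor, was 0.41 lower (SE 0.18), and the inducible Hspa1b ranged from 0.764 to 5.10 FPKM and from 0.994 to 2.69 FPKM. The median of the ATF4 list of the integrated stress response was -0.11 in Arrest and -0.12 in Adr hearts. The heat shock element, as GAA, TTC and GAA with 2 bases of any letter between neighbours and searched in the same way, was found in 2 of 25 promoters of the heat shock list (8.0%), those of Hspd1 and Hspe1, and in 0.47% of all promoters.

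Collagen and matrix genes were lower in 24 of 30 members (median -0.16), and this median was -0.02 without 0.5 day replicate 3. The fibrillar collagen gene Col3a1 read 22.5, 23.2, 68.4 and 42.8 FPKM at 0.5 days and 28.8, 17.7, 14.1 and 53.5 FPKM at 1 day, again highest in 0.5 day replicate 3 and 1 day replicate 4. In the same libraries the mesothelial marker sum was highest, at 61.4 and 89.2 FPKM against 6.61 to 39.0 FPKM in the other 6, and its part in the matrix values was not tested. Dcn, the collagen-binding proteoglycan decorin, went the other way. It read 205, 171, 169 and 182 FPKM and then 288, 218, 221 and 213 FPKM, a log2 difference of 0.36 (SE 0.13). It was the only separated member of 30, beside 1.29% of all genes upward. In Adr hearts Dcn was 0.49 higher at 1 day (SE 0.27). The fibroblast marker sum was 248 to 346 FPKM at 0.5 days and 287 to 381 FPKM at 1 day.

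Among the lists with a median above 0 were those of the respiratory chain. Complex I, which passes electrons from NADH into the respiratory chain, was higher in 34 of 36 nuclear-encoded members, with a median log2 difference of 0.20. Complexes II to V, the rest of the chain with ATP synthase, were higher in 38 of 38 members, with a median of 0.21. The interquartile ranges were narrow, 0.16 to 0.25 and 0.16 to 0.26. No member of either list was separated between the times, beside 1.29% of all genes upward and 1.19% downward. Ndufb9, a complex I subunit, read 432, 412, 315 and 369 FPKM at 0.5 days and 443, 392, 470 and 401 FPKM at 1 day, a difference of 0.17 (95% interval -0.13 to 0.46). Cox5a, a subunit of cytochrome c oxidase, read 278, 271, 225 and 198 FPKM and then 261, 277, 327 and 242 FPKM, a difference of 0.19 (-0.13 to 0.52). The groups overlapped in both. Across the 8 libraries the complex I median relative to the mean was 0.12, 0.02, -0.19 and -0.36 at 0.5 days and 0.00, 0.01, 0.30 and 0.04 at 1 day, with the lowest values in replicates 3 and 4 of 0.5 days and the highest in replicate 3 of 1 day. Without 0.5 day replicate 4 the medians of both lists were 0.13 and 0.12, and without 1 day replicate 3 they were 0.13 and 0.13. The ventricular cardiomyocyte marker sum moved with these values, at 16292, 16634, 13790 and 11591 FPKM at 0.5 days and 16154, 16262, 18564 and 15835 FPKM at 1 day, and its part in them was not tested. Quantile normalization reduced the medians of both lists to 0.10 and 0.09. In Adr hearts the direction was opposite, with 31 of 36 members of complex I and 29 of 38 of complexes II to V lower at 1 day (medians -0.13 and -0.10). Against the Naïve level, the complex I median rose from 0.30 to 0.53 between the Arrest times. That of complexes II to V rose from 0.29 to 0.50. Both lists thus began above Naïve hearts and moved further from them. The Adr medians against Naïve hearts went from 0.37 to 0.24 for complex I and from 0.33 to 0.21 for complexes II to V.

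**Figure D2:**
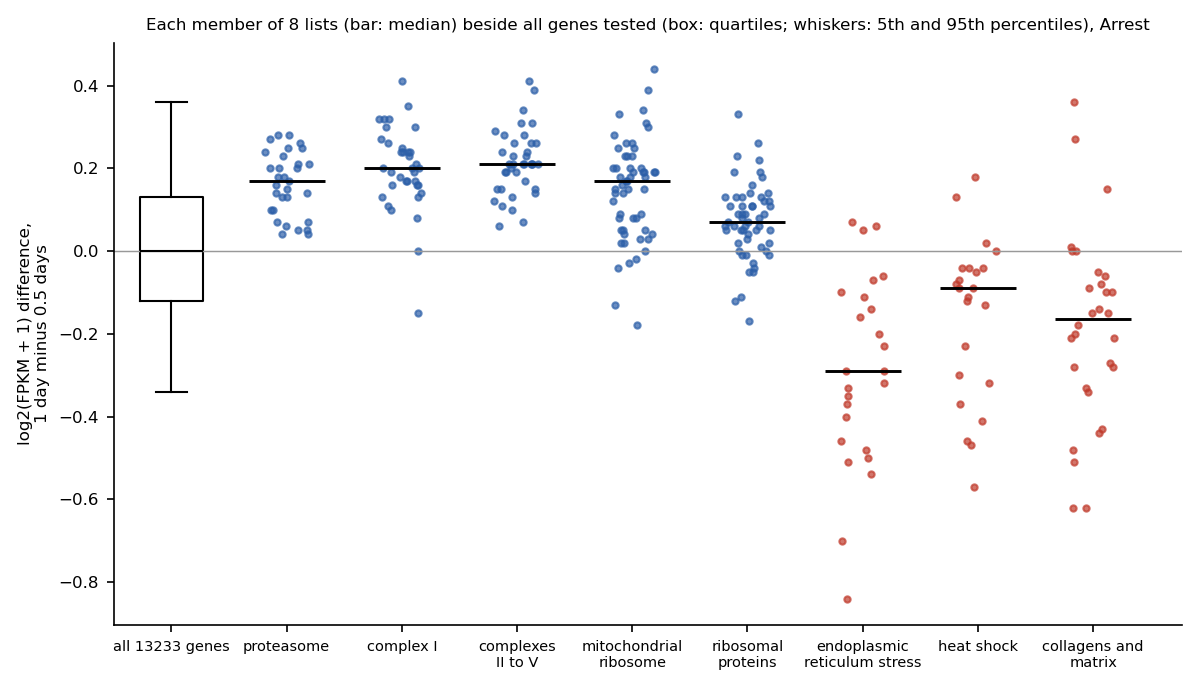
Log2(FPKM + 1) difference between Arrest at 1 day and at 0.5 days for every tested member of 8 lists, with the list median as a bar, beside a box for all 13233 genes (quartiles, whiskers from the 5th to the 95th percentile). All 31 proteasome and all 38 complexes II to V members sit above 0, while 22 of 25 ER stress members sit below it.

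Mitochondrial ribosomal protein genes were higher in 50 of 55 members (median 0.17, or 0.09 without 0.5 day replicate 4 and 0.11 without 1 day replicate 3). Mrpl4, a large subunit protein, was separated at 37, 37.4, 34.9 and 31.6 FPKM against 37.8, 42.6, 44.0 and 37.5 FPKM, a log2 difference of 0.19 (SE 0.10). It was 1 of 55 members, beside 1.29% of all genes upward, so this count says little. In Adr hearts Mrpl4 was 0.38 lower at 1 day, and the difference of the 2 changes was 0.57 (SE 0.15, limma unadjusted p = 0.0017). Mrpl4 was named for its separation in Arrest, which enters that difference, so this p-value is not an independent test. Of the 15 genes of the mitochondrial genome, 10 were lower, with a median of -0.05 that was 0.06 without 1 day replicate 4 and 0.03 without 1 day replicate 2. The mitochondrial share of all fragments was 24.4% to 26.0% at 0.5 days and 21.7% to 27.3% at 1 day. Citric acid cycle genes were higher in 22 of 24 members by a median of 0.08, and fatty acid oxidation genes in 30 of 34 by a median of 0.10, but with quantile normalization the medians were -0.01 and 0.01 and the members higher numbered 10 and 19, and without 1 day replicate 3 the medians were 0.04 and 0.02. The sarcomere list followed the same pattern, with 19 of 23 higher, a median of 0.13 and a quantile-normalized median of 0.02, and without 0.5 day replicate 3 or 4 its median was 0.08. Myh6, the main myosin heavy chain of the adult mouse heart, read 1436, 1547, 1175 and 1156 FPKM and then 1278, 1735, 1615 and 1315 FPKM. In Adr hearts 20 of 23 sarcomere genes were lower at 1 day (median -0.18).

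All 31 proteasome genes measured were higher at 1 day, by a median of 0.17, and in 4 of them, Psmb4, Psmb7, Psmc3 and Psmc6, the libraries did not overlap, beside 1.29% of all genes. Psmc3, an ATPase of the regulatory particle, read 76.6, 75.1, 62.8 and 70.9 FPKM at 0.5 days and 94.7, 84.6, 88.0 and 77.4 FPKM at 1 day, against 66.6 to 73.5 FPKM in Naïve hearts. Psmb7, a catalytic subunit of the core particle, read 20.1, 21.6, 21.7 and 18.5 FPKM and then 24.0, 26.9, 25.7 and 22.2 FPKM. Both means were 1.21-fold higher at 1 day (log2 differences 0.27 and 0.26, SE 0.11 in each). The median of the proteasome list was 0.13 with quantile normalization (30 of 31 higher), 0.12 when scaled to all fragments (29 of 31) and 0.13 to 0.23 when any library was left out. Proteasome genes are driven by NRF1 and NRF2 through antioxidant response elements, whose core letters TGACNNNGC were found on either strand in 4 of 27 promoters of the list (14.8%) beside 10.16% of all promoters. In Adr hearts 24 of 31 members were higher, by a median of 0.05. Relative to Naïve hearts the list median was 0.26 at 0.5 days and 0.41 at 1 day, where the same 5 Naïve libraries enter both values.

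Genes of the NRF2 antioxidant response were higher in 19 of 23 members (median 0.14), and the median was 0.04 without 0.5 day replicate 4, 0.05 without 0.5 day replicate 3 and 0.08 and 0.09 without 1 day replicates 3 and 1. Nqo1, a quinone reductase, read 81.9, 40.7, 28.5 and 32.1 FPKM at 0.5 days and 87.8, 52.3, 78.3 and 53.7 FPKM at 1 day, and without 0.5 day replicate 1 its log2 difference was 0.97 in place of 0.65 (unadjusted p = 0.0016 in place of 0.064, limma). Hmox1, heme oxygenase 1, ranged from 16.1 to 47.8 FPKM and from 12.9 to 83.3 FPKM. The ubiquitin ligase genes of muscle atrophy, Trim63 and Fbxo32, were 0.32 (SE 0.27) and 0.13 (SE 0.32) higher within a list of which 17 of 22 members were higher (median 0.15, or 0.05 without 1 day replicate 3 and 0.09 without 0.5 day replicate 3). Cytosolic ribosomal protein genes were higher in 44 of 55 members by a median of 0.07, but this direction turned with quantile normalization (median -0.04, 18 of 55 higher), and the median was 0.00 without 0.5 day replicate 4. Nop16 and Noc2l, which take part in ribosome assembly in the nucleolus, were separated the other way. Nop16 read 6.31 to 10.3 against 5.08 to 5.99 FPKM and Noc2l 7.59 to 9.17 against 6.05 to 7.34 FPKM. They were 2 of 38 members in a list with a median of -0.07, beside 1.19% of all genes downward. Among single members of other lists, Srebf1, the transcription factor of lipid synthesis, read 6.09, 5.11, 6.33 and 5.96 FPKM and then 8.56, 8.20, 7.24 and 7.02 FPKM. Vars, valyl-tRNA synthetase, was separated by 5.98 against 6.08 FPKM at its closest libraries. Mcm5, a subunit of the replicative helicase, read 1.01 to 1.89 FPKM and then 0.516 to 0.875 FPKM. Srebf1, Vars and Mcm5 were each the only separated member of their lists (19, 18 and 16 tested). Beside them stood 1.29% of all genes upward and 1.19% downward. Mitotic genes were scarcely measurable, with 3 of 28 tested and Mki67 at 0.122 to 0.269 FPKM in all 8 libraries.

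**Figure D3:**
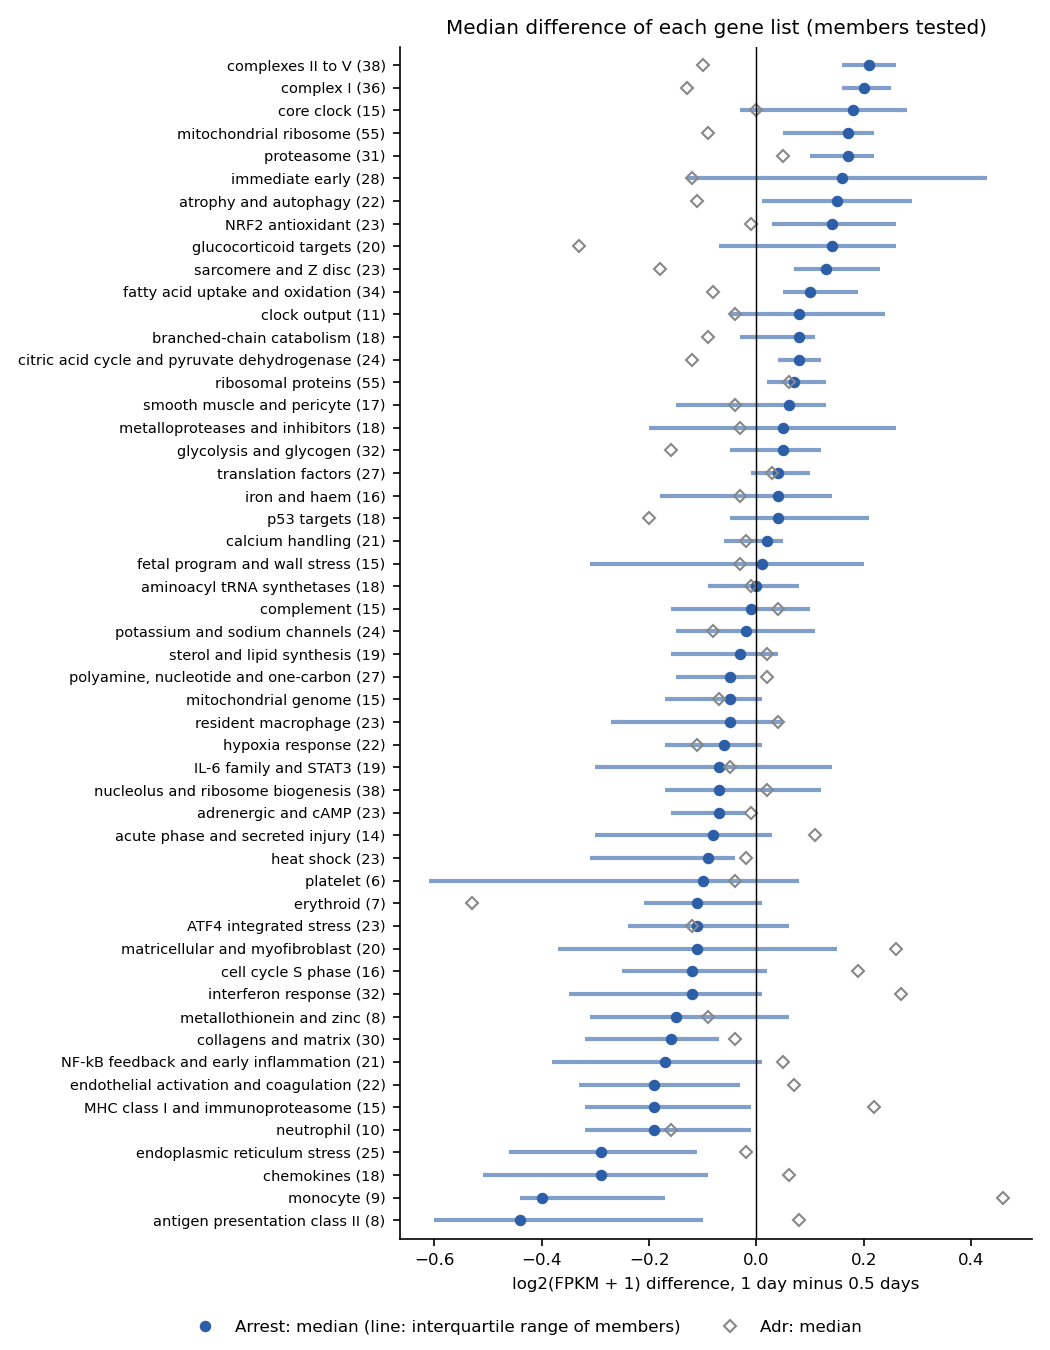
Median log2(FPKM + 1) difference between 1 day and 0.5 days for each list with at least 5 tested members (number in parentheses), with Arrest as filled circles with the interquartile range and Adr as open diamonds. Respiratory chain, mitochondrial ribosome and proteasome lists lie at the top (up to 0.21) beside the core clock list, with class II, monocyte, chemokine and ER stress lists at the bottom (down to -0.44), and for the monocyte list the Adr median lies on the other side of 0 (0.46).

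Differences in heart-specific stress and electrical programs were small or imprecise. Nppb and Nppa, the natriuretic peptide genes of wall stress, ranged from 631 to 1780 and from 576 to 2288 FPKM for Nppb and from 15.7 to 69.8 and from 31.9 to 70.0 FPKM for Nppa, with log2 differences of 0.29 (95% interval -0.84 to 1.43) and 0.74 (-0.24 to 1.72). Calcium handling genes had a median of 0.02. None of the 21 tested was separated, beside 1.29% of all genes upward and 1.19% downward, so the count says little. Atp2a2, the calcium pump of the sarcoplasmic reticulum, differed by -0.01 (SE 0.13). Potassium and sodium channel genes had a median of -0.02, glycolysis genes 0.05 and hypoxia response genes -0.06. Among clock genes, which are not the subject here, Dbp and Tef were the separated members. Dbp read 1.48 to 3.53 against 3.54 to 11.8 FPKM and Tef 5.40 to 9.12 against 10.8 to 15.1 FPKM. They were 2 of 11 clock output genes, beside 1.29% of all genes upward. The part of time of day in these and the other differences was not tested.

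Within the 1 day group, replicate 4 stood apart in several stress and fuel genes. Fos, the immediate early transcription factor, read 43.7, 36.7, 37.9 and 1.55 FPKM at 1 day and 4.98, 35.6, 0.739 and 15.2 FPKM at 0.5 days. Pdk4, the kinase that shuts pyruvate dehydrogenase when fat is burned, read 533, 348, 518 and 32.8 FPKM at 1 day and 153, 644, 77.5 and 286 FPKM at 0.5 days. Replicate 4 was thus the lowest of its group in both genes and, as given above, the highest in the ER chaperones. Cirbp and Rbm3, RNA-binding proteins induced by mild cooling, read 25.5, 24.3, 29.6 and 6.99 FPKM and 31.6, 22.3, 27.1 and 12.5 FPKM at 1 day, against 5.31 to 18.8 and 8.57 to 28.9 FPKM at 0.5 days. The complement gene C3 and the interferon-induced gene Ifit3 read 252 and 22.8 FPKM in replicate 4 against at most 60.3 and 4.99 FPKM in its group. At 0.5 days replicate 3 was lowest and replicate 2 highest of the group in Fos, Pdk4 and Cirbp. The macrophage and mesothelial marker sums were highest in 1 day replicate 4 (317 and 89.2 FPKM) and its endothelial sum lowest (246 FPKM against 492 to 618 FPKM in its group), and their part in these values was not tested. Without 1 day replicate 4, 943 genes reached an unadjusted p of 0.05 in place of 537 (491 higher and 452 lower), and none an adjusted p of 0.05. The log2 differences were then 2.19 for Fos, 1.35 for Cirbp and 1.08 for Pdk4, in place of 1.19, 0.91 and 0.14, with adjusted p from limma of 0.68, 0.67 and 0.73. The median of the interferon list was -0.36 without it, in place of -0.12, and it was 0.07 and 0.03 without 0.5 day replicate 3 and 1 day replicate 3.

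**Figure D4:**
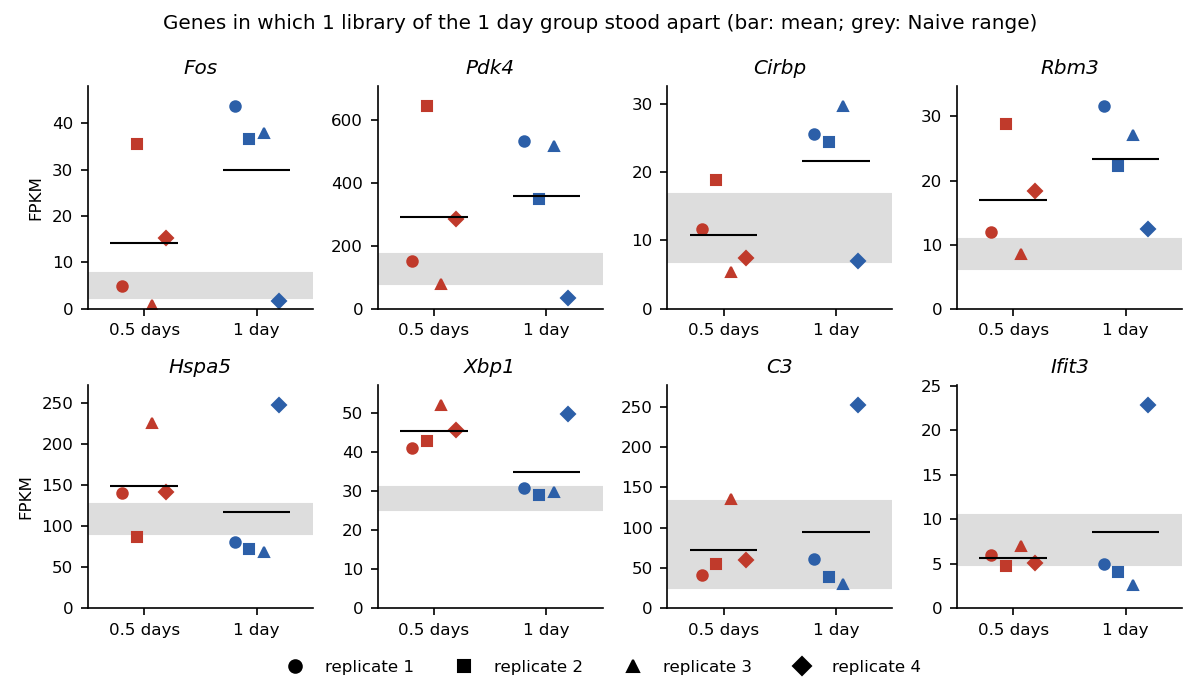
FPKM (linear axis from 0) of 8 genes in each Arrest library at 0.5 days (red) and 1 day (blue), with replicates as symbols, means as bars and the Naïve range in grey. Replicate 4 of 1 day (diamond) is low for Fos (1.55 against 36.7 to 43.7) and the other genes of the upper row and high for Hspa5 (247 against 68.2 to 80.1) and the other genes of the lower row.

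**Figure D5:**
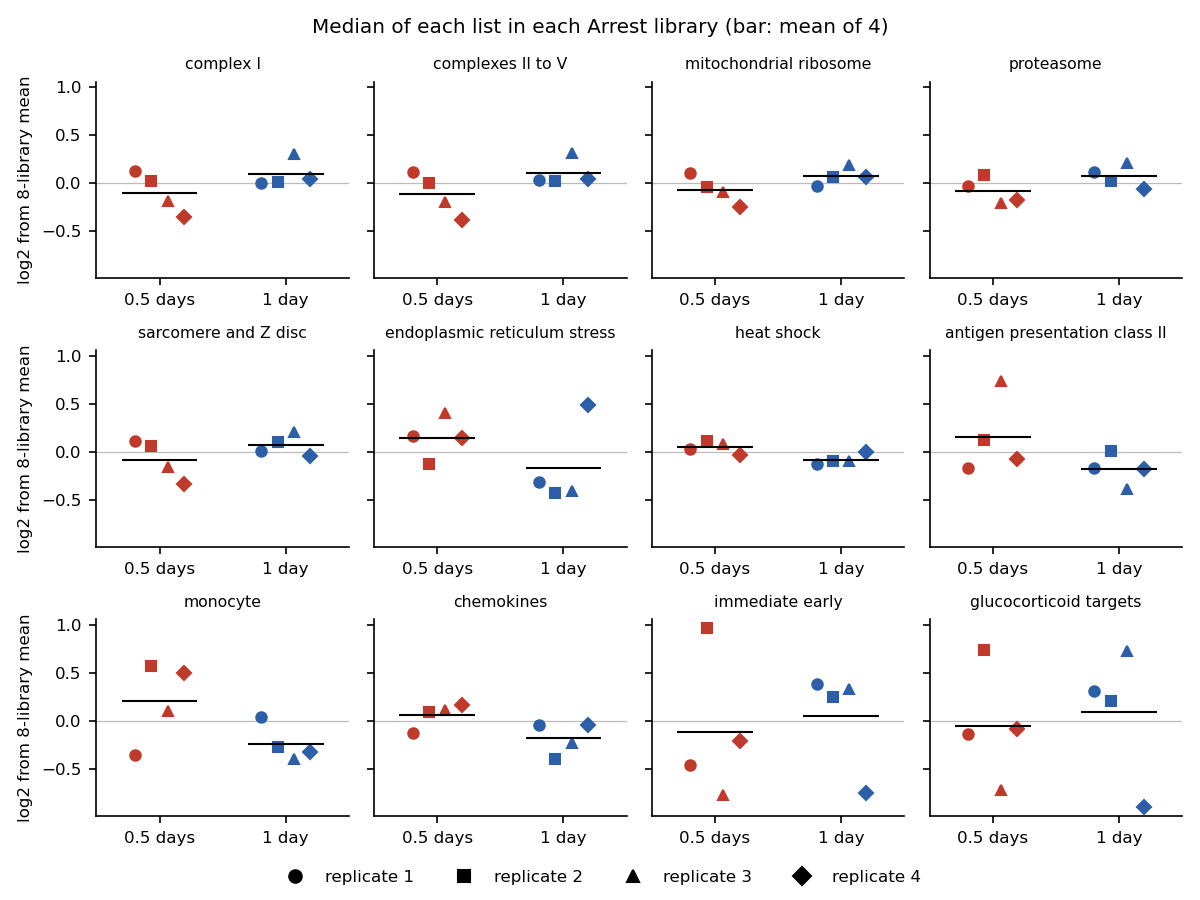
Median of each of 12 lists in each Arrest library, as log2(FPKM + 1) relative to the mean of the 8 libraries, with replicates as symbols and the mean of 4 as a bar. For the ER stress list 3 libraries of 1 day sit at -0.31 to -0.43 and replicate 4 at 0.49, and for the immediate early list (-0.77 to 0.96 at 0.5 days, -0.75 to 0.38 at 1 day) and the glucocorticoid list (-0.72 to 0.74 and -0.90 to 0.73) the spread within each time is wider than the distance between the bars.

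Adr hearts were compared over the same interval, since they had adrenaline and ventilation but no ischemia. In Adr, 623 genes (4.71%) reached an unadjusted p of 0.05 and none an adjusted p of 0.05 (limma, smallest adjusted p = 0.802), and 195 genes (1.47%) were separated upward and 196 (1.48%) downward. The difference of the 2 changes was tested in the 16 libraries together, where 695 genes (5.25%) reached an unadjusted p of 0.05 and none an adjusted p of 0.05 (smallest 0.890). Ctf1 was 0.68 higher at 1 day in Arrest and 0.49 lower in Adr, a difference of 1.18 (SE 0.30, limma unadjusted p = 0.0011). Ly86 was 0.65 lower in Arrest and 0.45 higher in Adr, a difference of -1.10 (SE 0.29, limma unadjusted p = 0.0016). Both genes were named for their Arrest change, which enters this difference, so these p-values do not test it independently. Among the lists with medians of opposite sign in the 2 arms were complex I and complexes II to V, the mitochondrial ribosome, the sarcomere, class I and class II antigen presentation, monocyte and interferon genes, and no test was made of a list as a whole.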

How the data were processed

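Left ventricular RNA was sequenced paired-end on an Illumina NovaSeq and aligned with HISAT2 2.0.5. The values analysed are FPKM, computed by the authors and deposited as 1 table (56748 genes, 37 libraries). The genome build and the counting tool are not given in the sources used here. Dividing values by the worth of 1 fragment gave whole fragments for 100% of the lower values, which were the ones checked (tolerance 0.01). Higher values were rounded to whole fragments without that check, and depth was recovered from all of them. Low values rest on few fragments and are imprecise.

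Genes reaching 0.5 FPKM in 4 or more of the 8 Arrest libraries (13233) were tested on log2(FPKM + 1), a scale that understates changes of low genes, with limma 3.58.1 (R 4.3.3, eBayes with trend, no covariate) and Benjamini-Hochberg adjustment over all genes. The study's own count model was not used, since the values are FPKM. The difference between arms was an interaction term over 16 libraries. Library measures were compared by exact permutation (Python 3.11.15, numpy 2.4.6), and dependence on gene length was a Spearman correlation (scipy 1.17.1). The scripts were tested on simulated data. The members and the gene lists were chosen with earlier results of these data known, so lists are described by counts and medians with no test. Genes named were, in each direction, the 12 largest differences among genes with an unadjusted p of at most 0.05, a mean of at least 1 FPKM in a group and no overlap (clock, Gm, Rik and unnamed genes only counted), the anchor genes of each list, and up to 2 separated members of each list in each direction. Genes outside this rule are Psmb4, Psmc6 and the element-bearing ER genes. Other scalings, pseudocounts, filters, covariates and leaving out each library were tried. Promoter sequences are from RefSeq on GRCm38.p6, where 23 of 26 ER stress genes matched. P-values measure the spread between these libraries.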

Additional observations from a re-analysis of the deposited data

Results flagged for a closer look

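Within each group of 4 Arrest libraries, the highest or lowest was compared with the rest by Dixon's criterion for the named genes and library measures. Of 368 groups examined, 38 held a library apart from the others, where chance flags about 1 in 20.

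At 1 day replicate 4 accounted for the low values of Fos (1.55 FPKM against 36.7 to 43.7), Pdk4 (32.8 against 348 to 533), Cirbp (6.99 against 24.3 to 29.6), Acot1, a fatty acyl-CoA thioesterase (3.73 against 18.5 to 24.0), and Selenbp1 (46.8 against 53.9 to 54.8). It was high in the ER genes Hspa5 (247 FPKM against 68.2 to 80.1), Hsp90b1 (87.3 against 31.2 to 35.7), Pdia6 (48.0 against 15.1 to 16.7), Syvn1 (9.90 against 3.93 to 4.07) and Xbp1 (49.8 against 29.0 to 30.8). It was also high in Ccl2 (11.4 FPKM), the potassium channel genes Kcnd2 (3.87) and Kcnj3 (9.03), the branched-chain phosphatase gene Ppm1k (13.1) and the macrophage marker sum (317 FPKM).

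The other 1 day libraries were apart in fewer genes. Replicate 1 was high in Dcn (288 FPKM) and Gimap3 (0.563) and low in the glucose transporter gene Slc2a4 (49.8) and in the number of genes above 0 (16812). Replicate 2 was high in Mcm5 (0.875 FPKM). Replicate 3 was low in Adrb1, the cardiac beta-adrenergic receptor gene (1.69 FPKM), in Cd83 (0.572), in Per2 (1.08) and in the correlation of expression with gene length (-0.201), and high in the ventricular marker sum (18564 FPKM).

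At 0.5 days replicate 1 was high in Dbp (3.53 FPKM), Selenbp1 (43.1) and Slc2a4 (66.5) and low in the heme synthesis gene Alas1 (14.0) and the metalloprotease gene Mmp3 (16.6). Replicate 2 was high in Nfil3 (58.9 FPKM), Socs3 (25.7) and the atrial marker sum (73.2) and low in Cx3cl1 (2.33). Replicate 3 was high in H2-Aa (24.5 FPKM) and the liver marker sum (1.23) and low in Gars (19.3), and replicate 4 was high in the adipocyte marker sum (3.13 FPKM).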

How the results depend on the processing

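In Arrest, the 537 genes at an unadjusted p of 0.05 became 896 of 25375 with no filter, 335 with all 37 libraries in the fit and 855 with sample quality weights, and 419 to 943 when a library was left out (806 without 0.5 day replicate 1, 943 without 1 day replicate 4). The 623 genes of Adr became 1167 with no filter and 424 to 1050 without a library (1050 without Adr 1 day replicate 4), and the 695 of the difference became 1132 and 529 to 1106 (1106 without the same library). At an adjusted p of 0.05 there were 0 genes in Adr, and 0 to 5 without a library (1 without Adr 0.5 day replicate 4, 5 without Adr 1 day replicate 4). The cause was not tested.

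Replicate numbers did not pair the samples, since same-numbered libraries deviated with correlations of -0.26 to 0.05 and 0 of 4 correlated best with their own number. With the replicate block 1 Arrest gene, Mir133a-1 (2.28 higher, adjusted p = 0.0373, limma), passed an adjusted p of 0.05, and 428, 830 and 732 genes reached an unadjusted p of 0.05 in Arrest, Adr and the difference.

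List medians moved beyond the spread between libraries in few cases. With a pseudocount of 0.1 they were 0.32 for the core clock, -1.61 for T, NK and B cells and -0.23 for S phase, and with quantile normalization -0.16 for heat shock. Leaving out a library gave -0.16 to -0.06 for heat shock, -0.05 to 0.09 for aminoacyl tRNA synthetases, -0.04 to 0.20 for p53 targets and -0.27 to -0.06 for platelet genes. The other 597 recomputed medians stayed within that spread, although some changed sign, as the report gives for ribosomal protein genes with quantile normalization and for the neutrophil, interferon, acute phase and mitochondrial genome lists without 1 library. With 4 libraries a time and a median SE of 0.17, differences of the size of most list medians were not detectable in single genes.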
